A study of Mus musculus with 2 samples.

Results

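Insl3, Rln1 and Rln3 encode the 3 relaxin-type hormones described here, and Rxfp1 and Rxfp2 encode the receptors through which relaxin and INSL3 act. These 5 genes were taken by symbol from the gene and transcript tables of both libraries, and they are 5 of 43346 mouse gene identifiers in those tables. Both libraries, replicate 2 and replicate 1, came from ovaries of adult female C57BL/6J littermates aged 8 weeks, with no treatment or genetic change named in the labels. Poly(A) RNA longer than 200 nucleotides, depleted of ribosomal RNA, was sequenced as stranded libraries with 76 bases read from each end. The labels number the libraries as biological replicates of 1 group but give both the same donor record, and they state neither the cycle stage nor whether the animals were pregnant. Differences and p-values therefore describe these 2 libraries and may be partly technical.

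Relaxin-family hormones are made as a single chain that prohormone convertases cut into an A and a B chain held together by disulphide bonds. INSL3 is the hormone of Leydig cells in the testis and theca cells in the ovary, and it binds RXFP2. Mouse Rln1 encodes the counterpart of human relaxin-2, the hormone of pregnancy that softens connective tissue and widens vessels through RXFP1, while relaxin-3 is best known as a neuropeptide of the brainstem. Both receptors are 7-helix receptors with a long leucine-rich ectodomain and an LDL-class A module at the tip, and both can raise cyclic AMP through Gs.

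The ligand genes spanned the widest range of levels, so their promoters are shown together. Each window runs from 250 bases before to 50 bases after the RefSeq start site (GRCm38.p6), 5′ to 3′ on the gene's own strand. Capitals mark 2 motifs searched on both strands. CAAGGNC is the core bound by the steroidogenic factor Nr5a1, and TATAAA is a form of the TATA box. They share no letters where they were found.
Insl3 promoter, chr8:71689002-71689301, plus strand: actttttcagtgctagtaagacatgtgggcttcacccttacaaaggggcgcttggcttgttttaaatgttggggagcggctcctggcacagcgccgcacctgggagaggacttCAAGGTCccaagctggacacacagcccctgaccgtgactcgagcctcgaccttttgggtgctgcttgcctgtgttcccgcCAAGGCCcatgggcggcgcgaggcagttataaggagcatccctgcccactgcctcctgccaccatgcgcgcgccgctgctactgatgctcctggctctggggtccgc
Rln1 promoter, chr19:29334621-29334920, minus strand: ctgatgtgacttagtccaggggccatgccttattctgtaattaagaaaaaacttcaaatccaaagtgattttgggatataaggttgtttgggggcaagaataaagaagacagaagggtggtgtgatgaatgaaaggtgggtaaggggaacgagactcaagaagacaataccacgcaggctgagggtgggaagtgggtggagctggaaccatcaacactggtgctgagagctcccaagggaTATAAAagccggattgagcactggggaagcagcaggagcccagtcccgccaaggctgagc
Rln3 promoter, chr8:84044930-84045229, minus strand: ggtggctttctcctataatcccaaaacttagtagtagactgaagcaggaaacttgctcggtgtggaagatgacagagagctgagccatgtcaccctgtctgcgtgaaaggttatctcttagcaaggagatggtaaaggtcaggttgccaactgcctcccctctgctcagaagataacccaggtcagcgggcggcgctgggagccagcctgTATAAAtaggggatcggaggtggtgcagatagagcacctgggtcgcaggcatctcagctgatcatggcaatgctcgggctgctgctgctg

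In the Insl3 window CAAGGNC occurred at positions -137 and -57 from the start site, and it occurred in none of the windows of Rln1, Rln3 and Rxfp2. It was present in 5845 of 32851 RefSeq promoter windows of the same length (17.8%). TATAAA occurred at position -10 in Rln1 and at position -40 in Rln3, and in 4473 of the 32851 windows (13.6%). This exact string was not found in the Insl3 or Rxfp2 window. Variants such as tataag, which the Insl3 window holds, were not searched. Positions depend on the start site used, and the GENCODE start of Insl3 lies 38 bases before the RefSeq start. The promoter table held no entry for Rxfp1. These matches are letters in a window, and no binding was measured.

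Insl3 was among the most abundant protein-coding transcripts of the ovary. Its level was 585 TPM (a level per transcript length, scaled to the same total in each library) in replicate 2 and 688 TPM in replicate 1, a mean of 636 ± 72.5 TPM (SD, n = 2). It ranked 181 in replicate 2 and 159 in replicate 1 among 21474 protein-coding genes, above 99.2% and 99.3% of them. The intervals that the authors deposited with the estimates ran from 562 to 591 TPM in replicate 2 and from 664 to 693 TPM in replicate 1, and they did not overlap. Expected counts were 6008 in replicate 2 (95% exact Poisson interval 5857 to 6162) and 8037 in replicate 1 (7862 to 8215). The Poisson intervals reflect counting error alone. Without molecular identifiers they take each read as an independent count. Insl3 made up 98.8% and 99.1% of the summed TPM of the 3 ligands in replicate 2 and replicate 1.

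Rln3 was the second ligand, far below Insl3. Its level was 7.02 TPM in replicate 2 and 5.83 TPM in replicate 1, a mean of 6.42 ± 0.841 TPM (SD, n = 2). The deposited intervals, 5.46 to 8.63 TPM in replicate 2 and 4.49 to 7.20 TPM in replicate 1, overlapped. The estimates rested on 74 counts (58.1 to 92.9) in replicate 2 and 70 counts (54.6 to 88.4) in replicate 1. In mean TPM Insl3 stood 99.0 times above Rln3. Rln3 is read from a single annotated transcript of 634 bases, of which 423 are coding.

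Rln1, the relaxin gene itself, was close to undetectable in these ovaries. It had 5 counts in replicate 2 (1.62 to 11.7) and 1 count in replicate 1 (0.0253 to 5.57). These gave 0.25 TPM in replicate 2 and 0.07 TPM in replicate 1, a mean of 0.16 ± 0.127 TPM (SD, n = 2). Its deposited intervals, 0.0848 to 0.631 TPM and 0.00918 to 0.320 TPM for replicate 2 and replicate 1, overlapped. Of its counts, 3 in replicate 2 and 1 in replicate 1 were assigned to the coding transcript Rln1-201, and the other 2 in replicate 2 to the retained-intron transcript Rln1-202. At this depth a gene with 0 counts could still reach 3 counts, or 0.0859 CPM (the count scaled to the library total) in replicate 2 and 0.0729 CPM in replicate 1. The count of Rln1 in replicate 1 lay under that limit.

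Rxfp1, the relaxin receptor, was measured at 5.24 TPM in replicate 2 and 4.43 TPM in replicate 1, a mean of 4.83 ± 0.573 TPM (SD, n = 2). The deposited intervals, 4.84 to 5.66 TPM in replicate 2 and 4.09 to 4.79 TPM in replicate 1, did not overlap. With 635 and 644 counts in replicate 2 and replicate 1 it was the better covered of the receptors. Rxfp1 ranked 10237 in replicate 2 and 10734 in replicate 1 among the 21474 protein-coding genes, near the middle of that order.

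Rxfp2, the receptor of INSL3, was lower, at 1.26 TPM in replicate 2 and 0.93 TPM in replicate 1, a mean of 1.09 ± 0.233 TPM (SD, n = 2). The deposited intervals, 0.956 to 1.73 TPM in replicate 2 and 0.705 to 1.32 TPM in replicate 1, overlapped. It had 46 counts in replicate 2 (33.7 to 61.4) and 41 counts in replicate 1 (29.4 to 55.6). At the gene level the TPM of Insl3 was 464 times that of Rxfp2 in replicate 2 and 739 times in replicate 1. This level of Rxfp2 includes transcripts annotated without a coding sequence. Its coding transcripts summed to 0.38 TPM in replicate 2 and 0.22 TPM in replicate 1.

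In both libraries the order of the levels was Insl3, Rln3, Rxfp1, Rxfp2 and Rln1. The deposited intervals separated Insl3 from Rln3, Rxfp1 from Rxfp2 and Rxfp2 from Rln1 in both libraries. For Rxfp2 these are intervals of the whole gene. The sum of its coding transcripts, 0.38 TPM in replicate 2 and 0.22 TPM in replicate 1, lay inside the interval of Rln1 in each library. Rln3 and Rxfp1, whose mean TPM differed 1.33-fold, had overlapping intervals in both libraries. Insl3, Rln3 and Rxfp1 reached 1 TPM in both libraries, that is 3 of the 5 genes, while 62.0% of protein-coding genes did. At a limit of 0.1 TPM it was 4 of the 5 genes and 73.6% of protein-coding genes. In a whole organ, fewer cells of a type and less RNA per cell cannot be told apart.

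**Figure D1:**
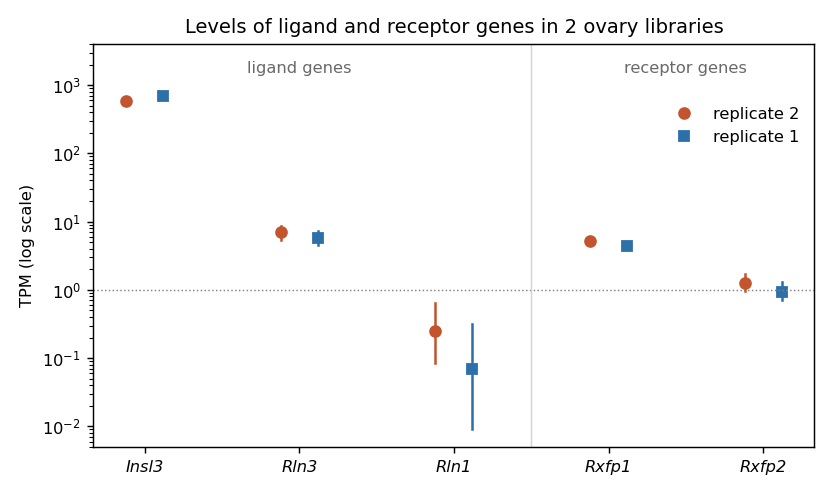
Level of each of the 5 genes in TPM (log axis) in replicate 2 (left of each pair) and replicate 1, with the interval that the authors deposited for each estimate as vertical lines; the dotted line marks 1 TPM. Insl3 sits at 585 and 688 TPM, Rln3, Rxfp1 and Rxfp2 between 0.93 and 7.02 TPM, and Rln1 at 0.25 and 0.07 TPM.

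Insl3 lies inside the span of another gene, Jak3, which encodes a kinase of cytokine receptors in blood cells. Both are on the plus strand of chromosome 8 and both end at base 71690575 (GRCm38), Jak3 starting at 71676296 and Insl3 at 71689214. Insl3 has 2 exons, 71689214 to 71689432 and 71690172 to 71690575, separated by an intron of 739 bases. The second exon is the same interval as the last of the 25 exons of the coding transcript Jak3-201, so that 404 of the 623 exonic bases of Insl3 (64.8%) are shared. In Insl3 that exon holds 191 coding bases, in Jak3-201 none. The sequence across the Insl3 join is shown because only reads that reach the first exon tell Insl3 from Jak3. Its capitals mark the first 25 bases of the shared exon.
Insl3-201, join of exons 1 and 2: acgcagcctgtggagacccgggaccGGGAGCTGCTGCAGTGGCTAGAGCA

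The uncertainty of the split between the genes was small beside the count of Insl3. Jak3 stood at 26.9 TPM in replicate 2 and 24.2 TPM in replicate 1. Its 2 transcripts that carry bases of the shared exon summed to 13.6 TPM in replicate 2 and 10.7 TPM in replicate 1. Jak3-201 alone stood at 11.6 TPM in replicate 2 and 8.13 TPM in replicate 1, and Insl3 was 50.6 and 84.6 times as abundant. The SD of the deposited posterior count of Insl3 was 2.81 in replicate 2 and 2.39 in replicate 1, against the expected counts of 6008 and 8037. For Jak3-201 it was 62.9 and 71.3 at counts of 1083 and 911, which also takes in the split among Jak3 transcripts. Jak3-202, which lacks the shared exon, had an SD of 75.9 in replicate 2 and 75.7 in replicate 1.

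**Figure D2:**
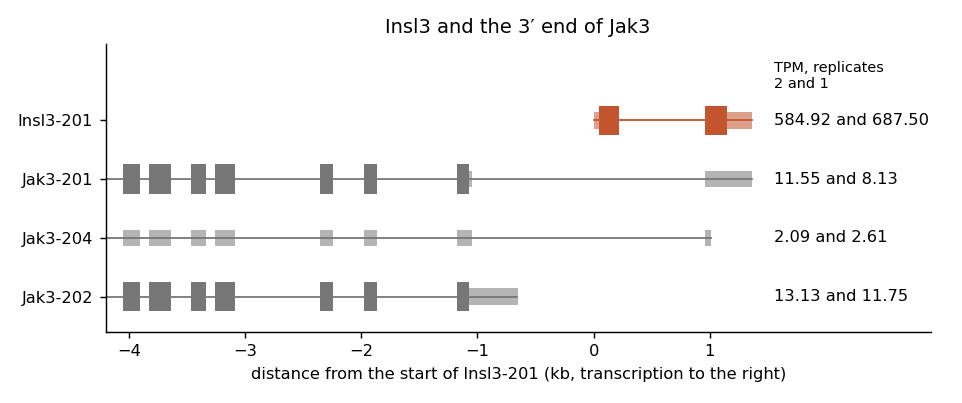
Exons at the 3′ end of Jak3 and of Insl3, both read to the right, with the distance from the start of Insl3 in kb on the horizontal axis and transcripts one above another with their TPM in replicate 2 and replicate 1; tall blocks are coding and low blocks non-coding bases. The second exon of Insl3 coincides with the last exon of Jak3-201, and the first exon of Insl3, of 219 bases, is its own.

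Rxfp1 reads were split between a coding transcript and one marked for decay. The coding transcript Rxfp1-201, with 18 exons and 2274 coding bases, had 49.1% of the gene's TPM in replicate 2 and 59.1% in replicate 1, a mean of 54.1% ± 7.12 (SD, n = 2). In TPM it stood at 2.57 in replicate 2 and 2.62 in replicate 1. Rxfp1-202, which the annotation marks for nonsense-mediated decay, had 49.6% in replicate 2 and 38.9% in replicate 1, a mean of 44.2% ± 7.50 (SD, n = 2). Its level was 2.60 TPM in replicate 2 and 1.72 TPM in replicate 1. The coding level was nearly the same in both libraries, and the level of the decay-marked form was the higher one in replicate 2. The remaining transcripts, Rxfp1-203 and Rxfp1-204, had at most 1.47% in either library.

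Rxfp1-202 differs from the coding transcript by a skipped exon, a retained intron and the positions of both ends. Exon 4 of Rxfp1-201, 106 bases at 79682441 to 79682546 of chromosome 3, is absent from it. Since 106 leaves a remainder of 1 on division by 3, the frame shifts and 306 coding bases are annotated. It also keeps an intron of 2122 bases at 79648292 to 79650413. On the minus strand its first exon starts at 79737880, against 79737794 in Rxfp1-201. Its last exon ends at 79644112, while that of Rxfp1-201 runs on to 79641611. In mouse, rat and pig a form without exon 4 has been described as a secreted, truncated receptor. That form holds the LDL-class A module and blocks relaxin signalling in cultured cells. No count is given for the skipped join by itself. The split between the transcripts rests on all bases that they do not share. These are the 2208 bases of Rxfp1-202 that Rxfp1-201 lacks, the retained intron included, and exon 4 and the longer last exon of Rxfp1-201. The joins that tell the transcripts apart are printed with the downstream exon in capitals.
Rxfp1-201, join of exons 3 and 4: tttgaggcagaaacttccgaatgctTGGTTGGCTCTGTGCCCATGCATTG
Rxfp1-201, join of exons 4 and 5: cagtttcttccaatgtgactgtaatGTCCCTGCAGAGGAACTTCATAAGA
Rxfp1-202, join of exons 3 and 4: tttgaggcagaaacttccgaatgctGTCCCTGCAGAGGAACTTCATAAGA

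A single-exon gene, Gm26984, lies in an intron of Rxfp1 on the same strand (chr3:79673367-79676876) and stood at 0.84 TPM in replicate 2 and 1.04 TPM in replicate 1. It had 68 counts in replicate 2 and 101 in replicate 1. Its part in the counts of Rxfp1 was not tested.

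Per transcript length, most of the Rxfp2 level was given to a short transcript annotated without a coding sequence. Rxfp2-203, annotated as a processed transcript, had 67.4% of the gene's TPM in replicate 2 and 67.8% in replicate 1, a mean of 67.6% ± 0.318 (SD, n = 2). Of the gene's counts, which are not scaled by length, it took 49.8% and 48.8%, less than the rest of the gene. It spans 150080622 to 150082184 of chromosome 5, shares 392 bases with the coding transcript Rxfp2-201, 257 of them coding, and has 848 bases past its end. All its 1306 bases lie inside the span of the antisense gene Gm42557 (chr5:150067258-150082795, minus strand). Gm42557 and the intronic Gm42558 had no entry in the count tables, and the labels call the libraries stranded without saying how strand was used in counting, so sense and antisense reads here cannot be told apart.

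The coding transcripts of Rxfp2 summed to 0.38 TPM in replicate 2 and 0.22 TPM in replicate 1, on 21.1 and 15.2 counts. The estimate put all of these counts on Rxfp2-202 in replicate 2 and all on Rxfp2-201 in replicate 1. These coding forms differ by 72 bases that Rxfp2-202 lacks. The deposited posterior means put counts on both, 15.7 in all in replicate 2 and 12.1 in replicate 1, and 4.82 and 3.27 counts on the retained-intron form Rxfp2-205, which had 0 in the main estimate. In percent of TPM they gave Rxfp2-201 10.2% in replicate 2 and 10.8% in replicate 1, and Rxfp2-202 12.9% in replicate 2 and 9.78% in replicate 1. At this depth the coding forms could not be separated. Between the receptors, coding Rxfp1-201 stood at 2.57 and 2.62 TPM, above the coding sum of Rxfp2 in both libraries.

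**Figure D3:**
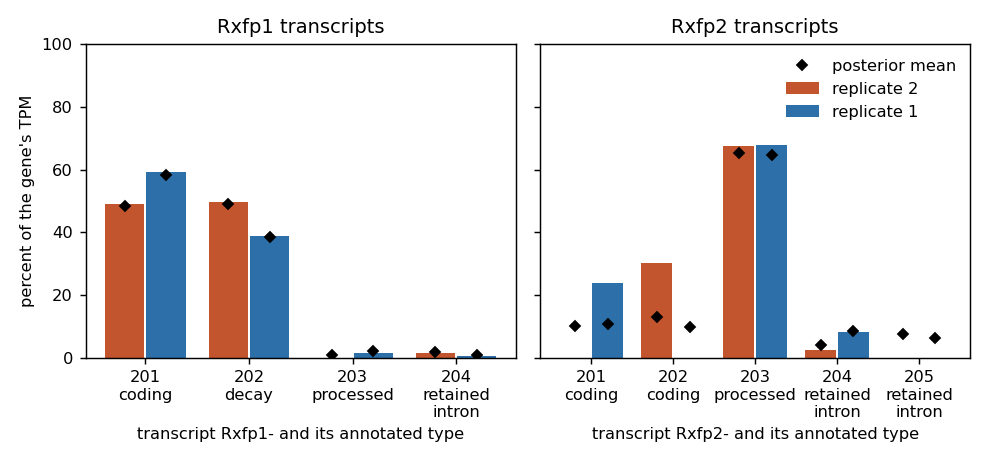
Percent of each receptor gene's TPM given to each annotated transcript, in replicate 2 (left bar of each pair) and replicate 1, with the posterior means that the authors deposited as diamonds. Rxfp1 is split between its coding and its decay-marked transcript, while the processed transcript Rxfp2-203 holds 67.4% and 67.8% of Rxfp2.

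The series holds 1 group, so the only comparison open is that of replicate 2 with replicate 1. Libraries were scaled by edgeR's TMM factors and each gene's counts compared by a two-sided exact binomial test with Benjamini-Hochberg adjustment at 0.05, which compares the reads of these libraries and not conditions. Of 15939 genes tested, 56.1% passed, 29.1% higher and 27.0% lower in replicate 2. Of the 5 genes here, 4 reached the mean count of 20 needed for the test, and 2 of those 4 passed, a share close to that of all genes.

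Insl3 was lower in replicate 2, with a log2 ratio of -0.12 (95% interval -0.17 to -0.07, adjusted p = 3.32e-06, exact binomial test), which is 0.920 times its level in replicate 1. Of all tested genes, 71.2% differed at least as much in size. On the TPM scale the difference was larger, with a log2 ratio of -0.23. The effective length used for Insl3, a short transcript, was 418 bases in replicate 2 and 396 bases in replicate 1.

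Rxfp1 was higher in replicate 2, with a log2 ratio of 0.28 (95% interval 0.12 to 0.44, adjusted p = 0.00149, exact binomial test), but scaling by the ERCC spike-ins turned it to -0.16 (adjusted p = 0.0709). Of all tested genes 43.2% differed at least as much. Spike-in scaling moved the median log2 ratio of all tested genes to -0.438, against -0.006 with TMM, so directions here are relative to the median gene. The share of all tested genes past the test was then 7.16% higher and 71.7% lower in replicate 2. Insl3 was lower in replicate 2 under both scalings, with a log2 ratio of -0.55 under spike-in scaling (adjusted p = 8.25e-113, exact binomial test).

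Rln3 and Rxfp2 did not pass. The log2 ratio of Rln3 was 0.37 (95% interval -0.11 to 0.87, adjusted p = 0.194, exact binomial test) and that of Rxfp2 0.45 (-0.17 to 1.11, adjusted p = 0.196, exact binomial test). With 41 to 74 counts a library, these intervals do not leave out changes as large as that of Rxfp1. Rln1 had too few counts, and its ratio of 6.15 had an exact interval of 0.688 to 291.

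**Figure D4:**
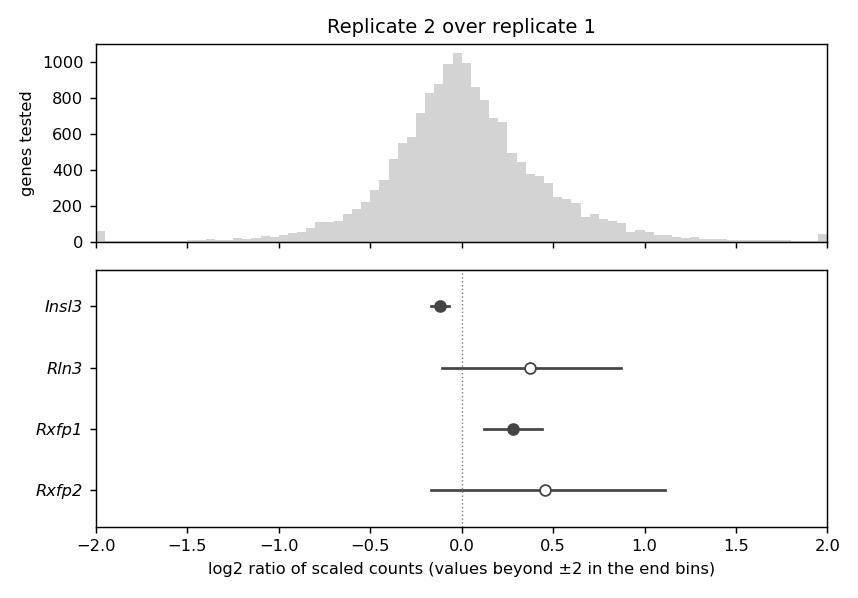
Log2 ratio of replicate 2 over replicate 1 for the tested genes of the set, with 95% exact binomial intervals as bars, under a histogram of all 15939 tested genes; filled points passed the test. Insl3 sits just below 0 with a narrow interval, Rxfp1 above 0, and the intervals of Rln3 and Rxfp2 cross 0.

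The closest relatives of these genes were scarce, and none of 4 reached 1 TPM in both libraries. Insl6, a hormone known from male germ cells, stood at 0.73 TPM in replicate 2 and 2.11 TPM in replicate 1, on 9 and 30 counts, a ratio of 0.369 (exact interval 0.154 to 0.798) from a mean count of 19.5, just under the minimum for the test. Without that minimum, over 22344 genes, it was lower in replicate 2 with a log2 ratio of -1.36 (adjusted p = 0.0165, exact binomial test). That setting called 20.4% of all genes higher and 19.9% lower in replicate 2. Rln1, Rxfp3 and Insl5 did not pass under it (adjusted p = 0.191, 0.18 and 0.344, exact binomial test). Insl5, a gut hormone, had 2 counts in replicate 2 and 0 in replicate 1. Its receptor Rxfp4 had 0 counts in both libraries. Rxfp3, the receptor of relaxin-3, had 4 counts in replicate 2 and 13 in replicate 1, or 0.04 and 0.11 TPM.

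Genes that process prohormones were measured as a list of 10, of which 8 reached 1 TPM in both libraries, against 62.0% of protein-coding genes. Cpe, which trims the cut chains, stood at 319 TPM in replicate 2 and 333 TPM in replicate 1. Furin, the convertase of the secretory pathway, stood at 147 TPM in replicate 2 and 144 TPM in replicate 1, and Pcsk6 at 26.3 and 24.3 TPM. The endocrine convertases Pcsk1 and Pcsk2, named after their values were seen, stood at no more than 0.09 TPM in either library. Of the 8 tested, 2 were higher and 1 lower in replicate 2 by the exact binomial test, against 29.1% and 27.0% of all genes. The median log2 ratio was -0.01, and spike-in scaling gave 0 higher and 7 lower, against 7.16% and 71.7% of all genes.

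The G proteins and cyclases that such receptors use in general were mostly detected. Of 16 G protein and adenylyl cyclase genes 14 reached 1 TPM in both libraries, against 62.0% of protein-coding genes. Their median mean level was 23.6 TPM against 12.7 TPM for all tested genes. Gnb2 stood at 1708 TPM in replicate 2 and 1467 TPM in replicate 1. Gnas, which encodes the stimulatory Gs subunit, stood at 1021 and 1109 TPM, and Gnb1 at 728 and 920 TPM. By the exact binomial test 10 of the 16 were higher and 3 lower in replicate 2, against 29.1% and 27.0% of all genes. The median log2 ratio was 0.17, but spike-in scaling gave 2 higher and 12 lower, against 7.16% and 71.7% of all genes. Adcy1, a calcium-sensitive cyclase, had the largest log2 ratio of the list at 1.21 (adjusted p = 2.06e-26, exact binomial test), from 1.53 TPM in replicate 2 and 0.68 TPM in replicate 1.

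All 14 effectors of cyclic AMP reached 1 TPM in both libraries, against 62.0% of protein-coding genes. Their median was 22.2 TPM, against 12.7 TPM for all tested genes. The regulatory subunits of protein kinase A led, Prkar2b at 251 TPM in replicate 2 and 149 TPM in replicate 1 and Prkar1a at 157 and 118 TPM. The catalytic subunit Prkaca stood at 63.0 TPM in replicate 2 and 76.1 TPM in replicate 1. Of the 14, 6 were higher and 3 lower in replicate 2 by the exact binomial test, against 29.1% and 27.0% of all genes. The median log2 ratio was 0.05, but spike-in scaling gave 2 higher and 9 lower, against 7.16% and 71.7% of all genes.

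A list of regulators of Insl3 in Leydig cells held transcription factors and, upstream of them, the hormone receptor Lhcgr. In it 12 of 12 genes reached 1 TPM in both libraries, against 62.0% of protein-coding genes. Their median was 116 TPM, against 12.7 TPM for all tested genes. Nr5a1, the steroidogenic factor whose core motif is capitalised in the Insl3 window, stood at 312 TPM in replicate 2 and 320 TPM in replicate 1. Its log2 ratio of 0.006 did not pass the exact binomial test (adjusted p = 0.728). Gata4 stood at 269 TPM in replicate 2 and 234 TPM in replicate 1, and Nr2f2, which encodes COUP-TFII, at 149 and 189 TPM. Of the 12, 6 were higher and 3 lower in replicate 2 by the exact binomial test, against 29.1% and 27.0% of all genes. The median log2 ratio was 0.14, but spike-in scaling gave 3 higher and 9 lower, against 7.16% and 71.7% of all genes. Granulosa cells also express several of these factors, so their level is not a level in theca cells.

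Matrix and vessel genes that relaxin is known to act on in other tissues were mostly detected. Whether relaxin acted on them here was not tested. Of 17 such genes 15 reached 1 TPM in both libraries, against 62.0% of protein-coding genes. Their median was 136 TPM, against 12.7 TPM for all tested genes. The matrix protease Mmp14 stood at 342 TPM in replicate 2 and 369 TPM in replicate 1, the collagen gene Col1a2 at 380 and 301 TPM, and the protease inhibitor Timp1 at 363 and 305 TPM. By the exact binomial test 10 of 16 tested were higher and 4 lower in replicate 2, against 29.1% and 27.0% of all genes. The median log2 ratio was 0.18, but spike-in scaling gave 1 higher and 14 lower, against 7.16% and 71.7% of all genes. Tgfb2, a growth factor, had the largest log2 ratio at 1.11 (adjusted p = 1.41e-20, exact binomial test), from 4.88 TPM in replicate 2 and 2.29 TPM in replicate 1.

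INSL3 has been described, in rat, as a signal from theca cells that lets oocytes resume meiosis through Gi. Of 9 genes listed for oocyte maturation, 7 reached 1 TPM in both libraries, against 62.0% of protein-coding genes. Their median was 13.9 TPM, against 12.7 TPM for all tested genes. These are levels in the whole ovary and not in oocytes. Adcy9 stood at 40.7 TPM in replicate 2 and 36.9 TPM in replicate 1, the phosphatase gene Cdc25b at 31.7 and 35.5 TPM, and the cyclase Adcy3 at 23.14 and 20.03 TPM. Of 8 tested, 2 were higher and 1 lower in replicate 2 by the exact binomial test, against 29.1% and 27.0% of all genes. The median log2 ratio was 0.02, but spike-in scaling gave 0 higher and 6 lower, against 7.16% and 71.7% of all genes.

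Cell type markers were read beside the hormone and receptor levels. Across all protein-coding genes 62.0% reached 1 TPM in both libraries. All 9 markers of theca and Leydig-type cells reached 1 TPM in both libraries, with Hsd3b1 at 1305 TPM in replicate 2 and 1689 TPM in replicate 1, Cyp11a1 at 1325 and 1342 TPM, and Cyp17a1 at 196 and 242 TPM. Their summed level was 3327 TPM in replicate 2 and 3821 TPM in replicate 1. Hsd3b1 and Cyp11a1 gave most of that sum in both libraries. Levels in a whole organ do not show whether theca or luteal cells carried this RNA, so the sum is not a measure of theca content. By the exact binomial test 6 of the 9 were lower and 3 higher in replicate 2, against 27.0% and 29.1% of all genes (8 and 1 with spike-in scaling, against 71.7% and 7.16%), and the median log2 ratio was -0.33. Lhcgr, the receptor of luteinizing hormone on theca and luteal cells, named after its values were seen, was among the 3 higher ones, at 150 TPM in replicate 2 and 91.2 TPM in replicate 1. The summed markers of granulosa cells, oocytes, oviduct, smooth muscle and uterine epithelium were also lower in replicate 2. Sums follow the most abundant genes, and the median log2 ratios of these lists went both ways. They were 0.02 for granulosa cells, -0.27 for oocytes, 0.09 for oviduct, 0.11 for smooth muscle and 0.01 for uterine epithelium. The part of cell content in the Insl3 difference was not tested.

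The other ovarian cell types were present in both libraries. All 6 luteal markers reached 1 TPM, summing to 2001 TPM in replicate 2 and 1975 TPM in replicate 1. Of these 4 were higher and 2 lower in replicate 2, against 29.1% and 27.0% of all genes, and Hsd17b7 had a log2 ratio of 1.08 (adjusted p = 6.09e-194, exact binomial test). The highest luteal markers were Scarb1 at 837 and 1133 TPM, Sfrp4 at 1016 and 732 TPM and Akr1c18 at 44.5 and 34.3 TPM, replicate 2 and replicate 1. All 6 granulosa markers were present at a sum of 7022 TPM in replicate 2 and 8062 TPM in replicate 1, led by Inha, Amh and Inhbb. All 8 oocyte markers were present at a sum of 334 TPM in replicate 2 and 426 TPM in replicate 1, led by Zp3, Gdf9 and Zp1, with 5 lower and 0 higher in replicate 2, against 27.0% and 29.1% of all genes.

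Markers listed for oviduct, smooth muscle, adipocytes and uterine epithelium were also detected. Whether such cells were present, inside or beside the ovary, was not tested. All 6 markers of oviduct epithelium reached 1 TPM in both libraries and summed to 776 TPM in replicate 2 and 852 TPM in replicate 1. The sums were 2947 and 3287 TPM for 5 smooth muscle markers and 4021 and 3205 TPM for 5 adipocyte markers, replicate 2 and replicate 1. The 3 genes listed for uterine epithelium, Ltf, Foxa2 and Hoxa11, summed to 59.3 TPM in replicate 2 and 74.0 TPM in replicate 1. Of that sum Ltf gave 42.9 TPM in replicate 2 and 57.95 TPM in replicate 1. Of the 4 genes used to check for testis RNA, Tnp1 and, named after its values were seen, Prm1 stood at 0 TPM in both libraries and Acrv1 at 0 and 0.08 TPM. The fourth, Dhh, which granulosa cells also make, stood at 54.7 TPM in replicate 2 and 50.4 TPM in replicate 1. Which of these cells carried Rln3, Rxfp1 or Rxfp2 RNA was not tested.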

How the data were processed

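Levels came from the authors' deposited gene and transcript tables of both libraries on mouse build mm10, with GENCODE M4 identifiers per the file headers and labels. Aligner and quantifier: not given in the sources used here. Expected counts (estimates, with decimals) and TPM, scaled by effective length, are as the authors deposited them. So is the percent of a gene's TPM that a transcript holds, also deposited by the authors. The authors deposited interval bounds, posterior means and SDs and lengths, treated as scores without a fixed range; the level of the intervals is not stated. The depth was 34930872 gene counts for replicate 2 and 41124064 for replicate 1. ERCC spike-ins took 0.986% and 0.764% of counts, and other rows without a gene took 0; all were left out. Names and coordinates came from GENCODE M21 on the same build (GRCm38), which named 42462 of 43346 identifiers and gave all 13 transcripts of the 5 genes the same length. Promoters came from RefSeq, GRCm38.p6.

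Expected counts were rounded, genes under a mean count of 20 left out, and TMM scaling factors taken from edgeR 4.0.16 under R 4.3.3, with a prior count of 1 for ratios. With 1 library a side no quasi-likelihood test could be fitted, so a two-sided exact binomial test with Benjamini-Hochberg adjustment at 0.05 was used. Poisson counts simulated for the 15939 genes, with 200 changed 2-fold, gave 181 of these called and 11 false calls. They hold no variation between libraries beyond counting, so they do not give the error rate in these libraries. DESeq2 1.42.0 gave alternative size factors. Python 3.11.15 ran scipy 1.17.1, numpy 2.4.6, pandas 2.3.3 and matplotlib 3.10.9.

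The genes and lists were chosen with earlier results of these data known. Named genes were the 5 genes, 4 relatives, all genes overlapping them, the 3 highest of each other list, and list members past the test with a log2 ratio beyond 1. Lhcgr, Prm1, Pcsk1 and Pcsk2 were named outside that rule, after their values were seen. Junction and contig tables on build mm9 were not used here.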

Additional observations from a re-analysis of the deposited data

How the results depend on the processing

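No paired analysis was possible because the series holds 1 group, and no ratio could be recomputed without a replicate because there are 2 libraries. Without replicate 1, 4 of the 5 genes reached 1 TPM, and without replicate 2, 3. Spike-in scaling reversed Rxfp1 to -0.16 (adjusted p = 0.0709, exact binomial test) and Rln3 to -0.05 (adjusted p = 0.887, exact binomial test). It left 1 of the 4 tested genes of the set past the test, Insl3, with 0 higher in replicate 2. Over all tested genes it called 1142 higher and 11431 lower. Bonferroni adjustment left Rxfp1 at 0.28 but not past the threshold (adjusted p = 1, exact binomial test). Of the 4 tested genes of the set 1 then passed, with 0 higher. That adjustment called 4763 of all tested genes (29.9%), 2782 higher (17.5%) and 1981 lower (12.4%). Insl3 was past the test under each scaling, filter and adjustment run; from TPM its log2 ratio was -0.23 with a pseudocount of 1 and of 0.1. Posterior means put Rxfp2-203 at 64.9% and Rxfp2-205 at 7.01% of Rxfp2. Under spike-in scaling the counts higher and lower in replicate 2 were 0 and 7 for prohormone processing, 2 and 12 for G proteins and cyclases, 2 and 9 for effectors of cyclic AMP, 3 and 9 for regulators of the Insl3 promoter, 1 and 14 for matrix and vessel genes, and 0 and 6 for oocyte maturation. Of all tested genes that scaling called 7.16% higher and 71.7% lower. A minimum mean count of 100 left no value for Rln3 and Rxfp2. Of all values recomputed, 209 kept direction and call or moved within the spread, 49 moved further, 2 reversed and 1 lost its call; the causes were not tested. Depth limits Rln1, Rxfp2 and the relatives most.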
